A study of Mus musculus with 2 samples.

Results

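The genes examined here encode potassium channels of the mouse retina. They were taken by name, as every gene whose symbol starts with Kcn followed by a letter and a digit and whose RefSeq transcript is the target of a probe on the array. That gave 83 genes of the 21367 genes named on the array, represented by 113 probes on 131 spots; 81 encode proteins and 2, Kcnd3os and Kcnq1ot1, are noncoding RNAs. Of the 83, 68 gave a signal well above background on 1 array or more, and 63 did so on both.

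Total RNA of dissected mouse retina at postnatal day 12 was labelled with the dye Cy3 and hybridised to 1-colour Agilent expression arrays. A single array carries the genotype label wild type and a single one the label Samd7 KO, a knockout of a sterile alpha motif gene of photoreceptors. The strain, the number of animals behind each RNA and the part of Samd7 that was deleted are not given in the sources used here. With 1 array per group there was no replicate, so the spread from animal to animal is unknown and no test was made. Every difference below compares these 2 arrays.

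Potassium channels let potassium ions leave or enter a cell along their gradient and so set its resting voltage and end its excitation. Pore subunits fall into voltage-gated channels, inward rectifiers, two-pore leak channels and channels opened by internal calcium or sodium; electrically silent and single-pass subunits alter the pores they join. In the retina, the silent subunit Kcnv2 shapes the voltage of photoreceptor inner segments, Kcnj10 lets Müller glia take up and release the potassium that neurons shed, Kcnj13 acts in the pigment epithelium, and Kcnj8 forms channels closed by ATP in pericytes.

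All values are log2 of the scanner software's processed signal, less the 75th percentile of its array, so that 0 is the level of a spot at that percentile, and a difference is the knockout-labelled minus the wild-type-labelled value. That percentile stood at 574 in the wild-type-labelled sample and 554 in the other, 60.3% and 60.9% of spots were well above background, and no spot was saturated. Precision within an array came from probes spotted several times. The SD of their log2 difference for a single spot was 0.33 below -4, 0.19 between -4 and -2, 0.086 between -2 and 0 and 0.049 at brighter spots. It covers spot noise only and says nothing about differences between animals. Samd7 itself went against its label. Its 1 named probe read 4.68 in the wild-type-labelled sample and 6.47 in the knockout-labelled one, a difference of 1.78 (3.44-fold higher). If that probe lies outside the deleted part it checks nothing, so each direction below rests on the labels.

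Kcne2, a single-pass accessory subunit that joins several voltage-gated pores, was the 1 channel gene of the 63 above background on both arrays that differed at least 2-fold. Of all 15256 such genes, 1.05% were 2-fold higher and 0.616% 2-fold lower. The signal of its single probe, A_55_P1979242, was 6841 in the wild-type-labelled sample and 17692 in the knockout-labelled one. On the log2 scale these are 3.57 and 5.0, a difference of 1.42 or 2.68-fold higher, against a spot SD of 0.049. Both readings were bright and the difference was 29.2 times the spot SD, while the spread between retinas is unknown. Across the other scalings the difference lay between 1.43 and 1.46. Counting bounds, 2 of the 68 channel genes (2.94%) passed 2-fold toward the knockout-labelled array, where 1.58% of all 15930 named genes above background did, and none of the 68 was at least 2-fold lower, where 1.37% of all genes were. Counts of 2 and 0 are near those background shares.

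The upstream DNA of Kcne2 is shown because the gene has 2 transcription starts in RefSeq and is the member that differed most clearly. Each stretch holds the 250 bases before a start, from RefSeq on mouse assembly GRCm38.p6, plus strand, and capitals mark a match to TAATC on either strand, the core bound by the photoreceptor homeobox factors Crx and Otx2.
Kcne2 first start, chr16:92292139-92292388: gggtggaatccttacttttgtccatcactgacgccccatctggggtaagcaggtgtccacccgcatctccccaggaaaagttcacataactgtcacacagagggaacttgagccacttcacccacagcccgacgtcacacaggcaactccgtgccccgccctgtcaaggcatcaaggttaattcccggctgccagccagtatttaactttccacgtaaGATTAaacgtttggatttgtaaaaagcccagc
Kcne2 second start, chr16:92295366-92295615: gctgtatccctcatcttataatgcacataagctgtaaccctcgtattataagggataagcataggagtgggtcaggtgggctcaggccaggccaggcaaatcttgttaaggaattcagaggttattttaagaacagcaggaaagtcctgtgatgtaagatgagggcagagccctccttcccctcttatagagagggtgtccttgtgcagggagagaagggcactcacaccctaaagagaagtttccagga
The first stretch holds 1 match, on the minus strand, starting 32 bases before the start. TAATC, chosen after the sequences were seen, occurred in 19.8% of 32851 such windows of all genes and in 17.3% of 75 windows that belong to 59 channel genes. Neither Kcne2 window held the longer TAATCC, the nuclear receptor site AGGTCA or the Maf-type site TGCTGA, each searched on both strands. TAATC lies within TAATCC, so these 2 searches overlap. Of all windows, 6.25% held TAATCC, 14.0% AGGTCA and 16.1% TGCTGA. Of the 75 channel gene windows, 1.33%, 6.67% and 13.3% did. The channel gene windows were richer in G and C, with a median of 58.8% against 52.4% in all windows. The shares were not matched for this, so no depletion of a motif can be read from them. A match describes letters in a window, not a bound site.

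The gene next to Kcne2 also read higher on the knockout-labelled array. Smim11, which encodes a small integral membrane protein and follows Kcne2 in chromosomal order among the measured protein-coding genes of chromosome 16, stood at 2.99 in the wild-type-labelled and 3.93 in the knockout-labelled sample. The gap of 0.94 (1.92-fold) is one that 1.70% of all named genes above background reached or passed, and Kcne2's is one that 0.904% did. On its other side, Mrps6, a protein of the mitochondrial ribosome, was higher by 0.21, at 3.15 and 3.36. The annotated spans of Kcne2 and Smim11 do not overlap.

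Farther from Kcne2 the differences were smaller or of the opposite sign. Among the 16 measured protein-coding genes nearest to it, 8 on each side, 14 were above background and 11 of these lay within 0.25 of 0. The ion channel gene Clic6 stood at -0.50 and the dim transcription factor gene Runx1 at -0.40, with a spot SD of 0.33 at its signal. The mean over the 2 probes of Runx1 was 0.039, so its direction depends on the probe. Kcne1, a relative of Kcne2 on the same chromosome segment, was not well above background, at -6.42 and -6.47. The neighbours were looked up after the Kcne2 value was seen.

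**Figure D1:**
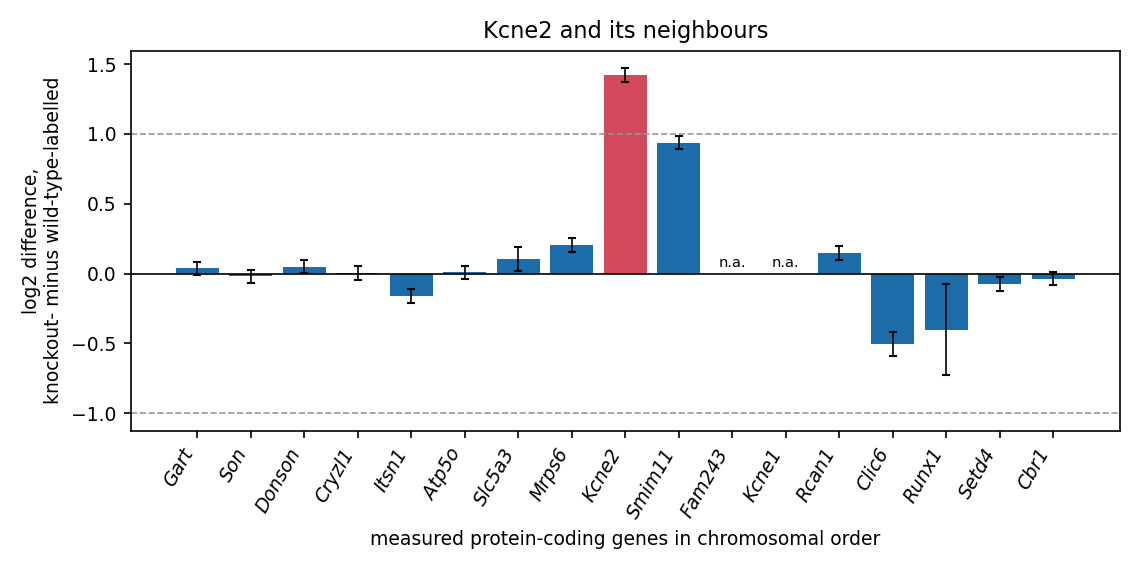
Bars give the log2 difference (knockout-labelled minus wild-type-labelled array) of Kcne2 (red) and of the 16 nearest measured protein-coding genes (blue) in chromosomal order; error bars are the spot SD at each gene's signal, not a spread between animals, and n.a. marks genes not well above background on either array. Kcne2 at 1.42 and Smim11 at 0.94 stand above all other neighbours, and dashed lines mark 2-fold.

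The other accessory subunits of the Kcne family, single-pass proteins that change the gating of voltage-gated pores, did not share the Kcne2 difference. Kcne1l read 2.67 and 2.56 on the wild-type- and knockout-labelled arrays, a difference of -0.11, with -0.07 in its other probe. Kcne3 read -2.95 and -3.23, a difference of -0.27 at a spot SD of 0.19. Kcne1 and Kcne4 were not well above background on either array. Of the 3 Kcne genes above background, 1 was thus higher and 2 were lower.

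Kcnv2, a silent subunit of photoreceptor channels and the gene of an inherited cone dystrophy, was lower on the knockout-labelled array. Its signal read 14978 and 11834 on the wild-type- and knockout-labelled arrays. The log2 values of 4.70 and 4.42 differ by -0.29, or 1.22-fold and 5.89 times the spot SD. The difference is under 2-fold and is measured by 1 probe on 1 spot. The pore subunit Kcnb2 was dim and near level, at -2.59 and -2.52.

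Marker genes of photoreceptors also differed between the arrays. All 8 rod markers analysed were lower on the knockout-labelled array, with a median of -0.22 and a range from -2.13 (Gnat1, the rod transducin) to -0.07 (Pde6b, a rod phosphodiesterase subunit). Their summed signal, in units of the 75th percentile, was 860 in the wild-type-labelled sample and 647 in the other. Gnat1 alone was 2-fold lower. Of 10 cone markers, 7 were higher and 3 lower, with a median of 0.60, a range from -0.17 (Opn1mw) to 2.91 (Cnga3) and a summed signal of 157 and 428. The cone opsin Opn1sw (2.09), the transducin subunit Gngt2 (2.45), and the channel subunits Cngb3 (2.14) and Cnga3 were more than 2-fold higher. Gngt2 was the brightest of the 10 on both arrays, at 5.63 and 8.09, so it weighs most in the summed cone signal. All rod and cone markers were above background on both arrays. The part of these shifts in the values of Kcne2 and Kcnv2 was not tested, and in a bulk sample fewer cells of a type and less RNA per cell cannot be told apart.

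The voltage-gated pore subunits, which open on depolarisation and repolarise the cell, were mostly level. Of 30 such genes, 27 were above background, 26 of them on both arrays, and 15 of the 26 were higher and 11 lower, with a median of 0.044 for the 27. The median of all named genes above background was -0.023. The Shaker-type gene Kcna4 stood apart among the bright ones, at 2.72 and 2.44, a difference of -0.28. It falls outside the rule for named genes and was singled out after its value was seen. The Shaker-type genes Kcna1, Kcna5 and Kcna6 lie next to each other on chromosome 6 and differed by 0.016, 0.010 and 0.045. Kcna2 and Kcna3, neighbours on chromosome 3, differed by 0.13 and 0.15. The dimmer probe of Kcna2, at -3.97 and -4.46, gave -0.49, so the direction of Kcna2 differs between its probes.

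Kcnc1 and Kcnc2, fast-activating channels of neurons that fire at high rates, were close to level. Kcnc1 read 1.37 on the wild-type-labelled and 1.42 on the knockout-labelled array, and its 3 probes differed by -0.08, 0.05 and 0.09. Kcnc2, a channel of starburst amacrine cells, read -0.04 and 0.06. The 3 members of the Kcnd family, which carry transient currents, lay between -0.06 and -0.01, with Kcnd1 on the other side of 0 after median centring (0.023).

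At low signal the voltage-gated genes diverged more. Kcnq3, a subunit of the M-type channel that holds back repetitive firing, read -4.69 and -5.30, a difference of -0.61 at a spot SD of 0.33 (-0.19 after normexp background correction). Kcnq1, known from heart and inner ear, read -2.70 and -2.16, a difference of 0.54, whereas its other probe gave -0.98. The direction of Kcnq1 hence differs between its probes. Kcnh7, an ether-à-go-go-related channel, was well above background on the knockout-labelled array alone, with -5.78 on the wild-type-labelled and -3.96 on the knockout-labelled array. Such a gene has only a bound, taken against the higher of the dim array's lowest signal called above background and the gene's own signal there. By that bound Kcnh7 was at least 2.70-fold higher. After normexp correction, whose offset shrinks dim differences, its difference was 0.39, so the 2-fold count rests on how dim spots are treated. The linear signals behind it were 10.5 and 35.6.

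**Figure D2:**
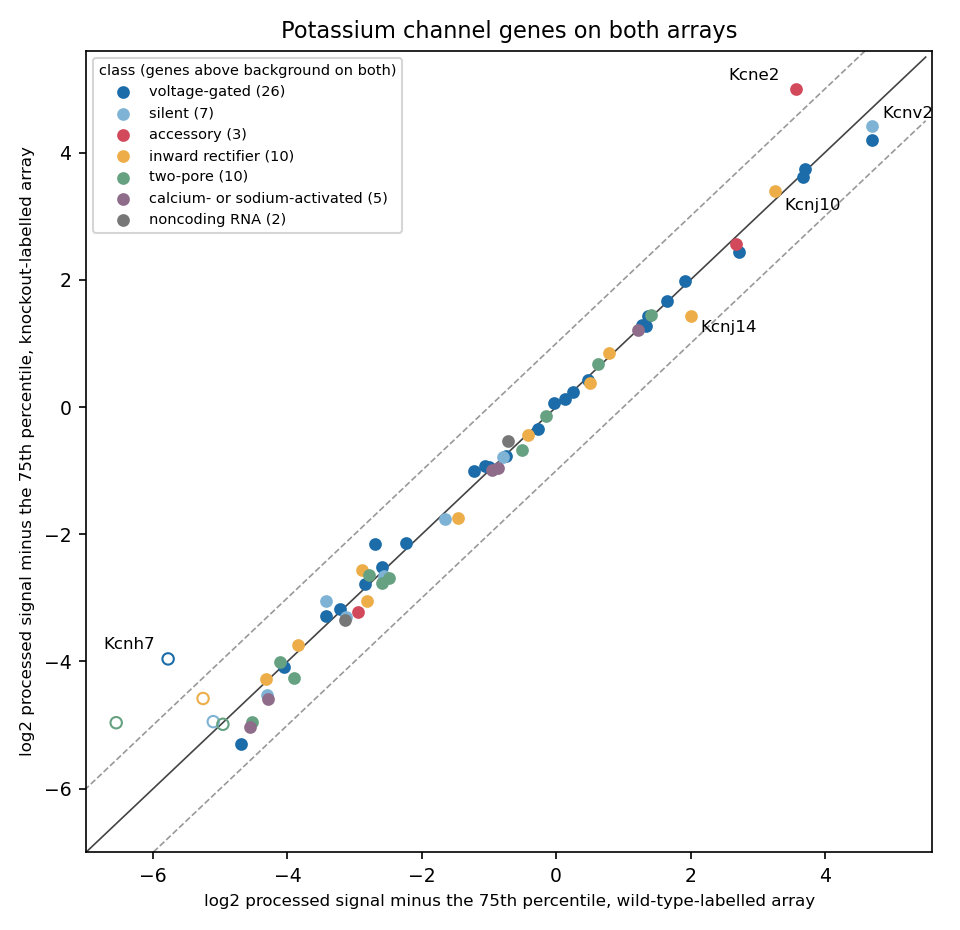
Each point is 1 gene, with its log2 signal minus the 75th percentile on the wild-type-labelled array (x) and the knockout-labelled array (y), coloured by channel class; filled points are above background on both arrays, open points on the knockout-labelled array only. The solid line marks equality and the dashed lines 2-fold. Kcne2 and 2 dim open points, Kcnh7 and Kcnk5, lie outside the upper dashed line, and the bound for Kcnk5 is 1.35-fold.

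Silent subunits, which form no channel alone but alter pores of the Kcnb family, were lower in 6 of the 7 genes above background on both arrays. Their median was -0.10 over 8, against -0.023 for all named genes above background. After normexp it was -0.017, against -0.012, and Kcns3 turned to 0.092. Kcng4, at -0.00029, turned to 0.032 at most under other scalings. Besides Kcnv2, the others measured on both arrays lay between -0.22 (Kcns3) and -0.00029 (Kcng4), except for Kcnf1. Kcnf1 read -3.43 on the wild-type-labelled and -3.06 on the knockout-labelled array, a difference of 0.37 at a spot SD of 0.19, and its other probe gave 0.45. Before any other scaling it was the 1 of the 7 on the higher side, in both of its probes.

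Inward rectifiers, which pass potassium inward more easily than outward and hold the resting voltage, were split, with 5 higher and 5 lower of the 10 above background on both arrays. Kcnj10, the main rectifier of Müller glia, read 3.25 and 3.39, a difference of 0.14 or 2.82 times the spot SD. Müller glia markers were higher in 6 of 8 genes, with a median of 0.049, from -0.14 (Car14) to 0.44 (Apoe) and a summed signal of 227 and 249. Aqp4, the water channel that sits with Kcnj10 in glial endfeet, was also at 0.14. The dystrophin-linked anchoring genes were all lower, from -0.27 (Sntb1) to -0.07 (Dmd), so 1 of the 6 anchoring partners was on the side of Kcnj10. Kcnj9, next to Kcnj10 on chromosome 1, was at 0.066.

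Kcnj14, an inward rectifier of neurons, had the most negative difference of the channel genes with a signal of 0 or more. It read 2.0 on the wild-type-labelled and 1.43 on the knockout-labelled array, a difference of -0.58 or 1.49-fold. Its other probe read -0.92 and -1.55, a difference of -0.62. Both probes placed Kcnj14 lower to a like extent, at 11.8 times the spot SD in the brighter one. The protein-coding genes on its sides, Cyth2 and Grwd1, were at -0.015 and 0.057, beside a spot SD of 0.049.

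Rectifiers of the pigment epithelium and of vessels lay on opposite sides of 0. Kcnj13 read -1.46 and -1.74, a difference of -0.29 (-0.12 after normexp), and its other probe gave -0.35. Of 6 pigment epithelium markers above background, 5 were lower, with a median of -0.49, from -0.81 (Pmel) to 0.15 (Best1) and a summed signal of 17.8 and 12, while Lrat was not above background. Kcnj8, the pericyte rectifier, read -2.89 and -2.56, a difference of 0.33 at a spot SD of 0.19 (0.17 after normexp). Its regulatory partner Abcc9, the adjacent gene on chromosome 6, was at 0.079. Pericyte and endothelial markers were lower in 6 of 8, with a median of -0.16, from -0.29 (Tek) to 0.079 (Abcc9) and a summed signal of 13.0 and 11.9. That list pools 2 cell types. Its pericyte genes were split, with Pdgfrb (0.061) and Abcc9 higher and Rgs5 (-0.21) and Cspg4 (-0.25) lower. Its endothelial genes Pecam1, Cdh5, Tek and Cldn5 were all lower. Kcnj8 was thus higher beside pericyte genes of both signs, and Kcnj13 lower beside a list that was mostly lower. The part of either cell type in these values was not tested.

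Among the remaining rectifiers, Kcnj12 was level at -0.43 and -0.44 (0.017 after median centring). Kcnj2 was above background on the knockout-labelled array alone, at -5.26 and -4.58, which by the bound is at least 1.60-fold higher (0.26 on the log2 scale after normexp). Kcnj11, the pore of the ATP-closed channel of beta cells and neurons, read -2.81 and -3.05, a difference of -0.24. Its other probe read -2.61 on the wild-type-labelled array and -6.02, below background, on the other, at least 7.71-fold lower. The 2 probes of Kcnj11 differ in size although both are assigned the same transcript. Abcc8, the partner of Kcnj11, was at 0.022.

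Two-pore channels, which carry the background leak, showed no gene 2-fold apart. Of 14, 12 were above background and 10 on both arrays, with 4 higher and 6 lower and a median of -0.00083, which lies within the shift that scaling gives. Bright members were level, with Kcnk3 at 1.41 and 1.44 and Kcnk1 at 0.62 and 0.67. Kcnk2, a stretch-sensitive leak channel, read -4.52 and -4.95, a difference of -0.43 at a spot SD of 0.33. Kcnk16 read -3.90 and -4.26, a difference of -0.36, and Kcnk12 was the highest measured on both arrays at 0.15. The larger values of this class were those of dim genes.

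The group of channels opened by calcium or sodium, in which Kcnu1 is counted as a relative although alkaline pH and voltage open it, was lower in all 5 genes above background, with a median of -0.091 and differences from -0.47 (Kcnt2) to -0.0091 (Kcnn2), though Kcnn2 and Kcnu1 turned positive under other scalings. Kcnn2, a small-conductance channel, carries the best precision of all members because its probe was spotted 10 times. The spots ranged from 1.15 to 1.29 in the wild-type-labelled sample, with their median at 1.22, and from 1.13 to 1.36 in the knockout-labelled one, with their median at 1.18. The ranges overlap, and the mean difference was -0.0091 ± 0.044 (SD over 10 spots of 1 array pair). Median centring, loess and normexp turned its sign, at 0.023, 0.011 and 0.027. Kcnn3 read -4.29 and -4.59 and Kcnt2 -4.56 and -5.04, both with a spot SD of 0.33. Kcnu1, known from sperm, was above background at -0.96 and -0.99.

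The noncoding RNA Kcnq1ot1, an imprinted transcript that runs antisense within Kcnq1, read -0.72 and -0.53 with its brighter probe, a difference of 0.19. Its dimmer probe read -3.83 and -1.97, a difference of 1.87 or 3.65-fold higher. The probes agree in direction and not in size. Whether signal is shared with Kcnq1 was not tested. Kcnd3os, an antisense transcript at Kcnd3, was at -0.21.

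**Figure D3:**
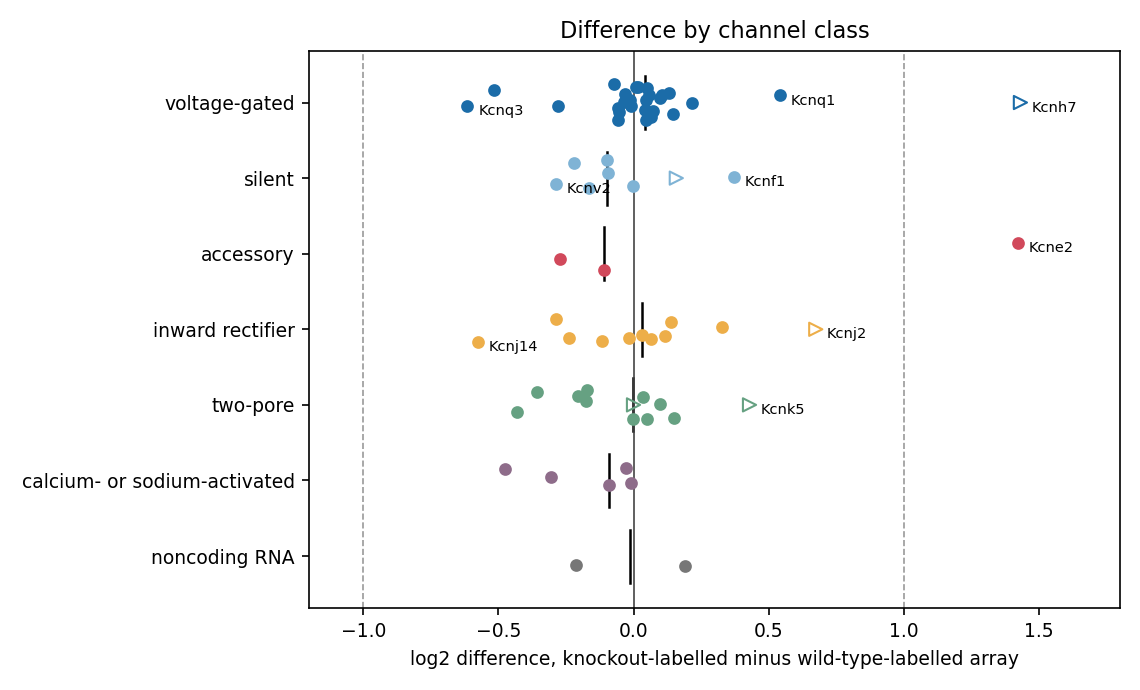
Each point is 1 gene above background, with its log2 difference (knockout-labelled minus wild-type-labelled array) on the x axis, by channel class on the y axis; open triangles are lower bounds for genes above background on the knockout-labelled array alone, the vertical scatter within a class is for legibility, and black bars are class medians. Class medians lie between -0.11 and 0.044, and Kcne2 and the bound for Kcnh7 lie past the dashed 2-fold lines.

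As a set, the channel genes had a median difference near that of all genes, and a smaller share of them lay close to 0. Of the 63 above background on both arrays, 27 were higher and 36 lower, with a median of -0.014 against -0.023 for all 15256 such genes. Within 0.5 of 0 lay 92.1% of them and 94.7% of all genes, and within 0.25 lay 76.2% and 84.0%. The size of the difference followed the signal. The median absolute difference was 0.056 in the 23 channel genes with a mean signal of 0 or more (0.066 in all genes of that range), 0.082 in 14 from -2 to 0 (0.096), 0.16 in 17 from -4 to -2 (0.15) and 0.30 in 9 below -4 (0.23).

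A finer yardstick, 3 times the spot SD, was chosen after the values were seen. Of the 63, Kcne2 alone was higher by more than that (1.59%, against 6.84% of all genes), and 5 were lower, among them Kcnj14, Kcnv2, Kcnj13 and Kcna4 (7.94%, against 8.60%). At 1.5-fold, 3 of 68 were higher, Kcne2, Kcnh7 and Kcnj2, where 2.96% of all genes were, and Kcnq3 was lower, where 3.20% were. The share higher at 1.5-fold, 3 of 68, is above the background, by a count too small to read a difference from. The other shares are near or under the background.

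The 5 genes above background on 1 array alone, Kcnh7, Kcnj2, Kcnk5, Kcns1 and Kcnk9, were all above it on the knockout-labelled array. They are 5 of the 68 channel genes above background, and 0 were above it on the other array alone. Of all named genes above background, 2.25% were so on the knockout-labelled array alone and 1.98% on the other alone. The channel genes' share on the knockout-labelled array is above the background, by a count too small to read a difference from. These shares were not matched for signal. Kcnk5, a two-pore channel, read -6.55 and -4.96 and was at least 1.35-fold higher. For Kcns1 and Kcnk9 the values on the 2 arrays lay within 0.16 of each other (-5.10 and -4.95, and -4.96 and -4.99), so the background call rather than the level separates them. Just outside the requirement lay Kcnj16, the partner of Kcnj10, at -5.20 and -5.33.

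The 15 genes of the 83 not well above background on either array also included Kcna10, Kcne1, Kcne4, Kcng3, Kcnj1, Kcnj6, Kcnj15, Kcnk7, Kcnk18, Kcnn1, Kcnn4, Kcnq5 and Kcnv1. No other probe of the 15 was above background. For Kcnj6, a brain rectifier whose probe was spotted 10 times, 8 spots were free of outlier flags on both arrays. They ranged from -6.91 to -4.95 on the wild-type-labelled array and from -6.71 to -5.44 on the other. The SD of their difference was 0.53, which shows how wide spot noise is below background.

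**Figure D4:**
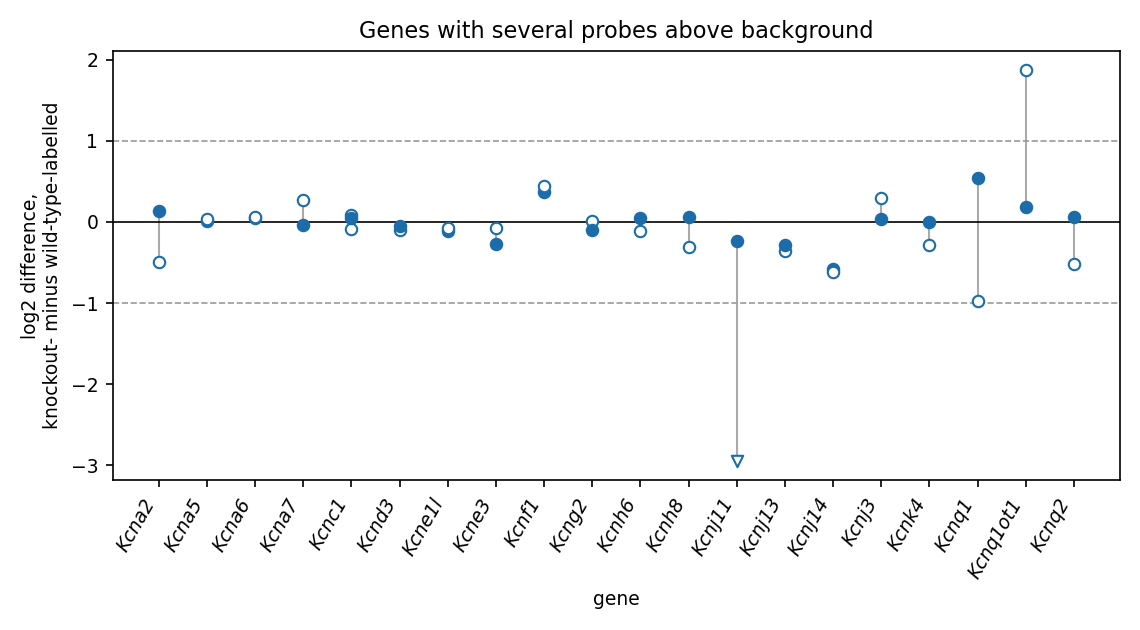
For 20 of the 21 genes with several probes above background on at least 1 array, points give each probe's log2 difference (knockout-labelled minus wild-type-labelled array); filled points are the probes used for the gene, and the triangle marks a bound. Most pairs lie close together, while Kcnj11, Kcnq1 and Kcnq1ot1 have probes more than 1 apart.

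Probe agreement was measured for the 20 channel genes that had several probes bright enough on both arrays. Their probes' log2 differences spanned a median of 0.18, against 0.10 in 4131 such genes in all. In 2 of the 20 (10%), Kcnq1 and Kcnq1ot1, the range was 1 or more, against 43 of the 4131 (1.04%). The channel genes' probes thus lay farther apart than those of all such genes by both measures, a difference that was not tested. The comparison was not matched for signal, and differences grew as signal fell. Of the 63 channel genes above background on both arrays, 23 had a mean signal of 0 or more, against 8728 of all 15256.

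Genes that work with these channels but lie outside the name rule were level. Of 21 accessory subunits and partners, 17 were above background, 9 higher and 8 lower, with a median of 0.015 and none 2-fold apart, from -0.13 (Kcnmb2) to 0.21 (Kcnrg). Kcnma1, the large calcium-activated channel, read 4.21 and 4.28. Dpp6, which joins Kcnd pores, read 3.39 and 3.41, and Kcnip3, which does so too, 3.73 and 3.69. The partners of channels that differed by little were thus also level.

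The hyperpolarisation-activated channels Hcn2 and Hcn3 read slightly lower by the probe used, at -0.095 and -0.067, each beside a spot SD of 0.049. For Hcn2 the mean over its 2 probes was 0.069, so its direction depends on the probe. Hcn4 was not above background. Among 13 genes of the sodium-potassium pump and of potassium-coupled transport, 4 were higher and 9 lower, with a median of -0.047. The lowest was Slc24a1, the sodium, calcium and potassium exchanger of rods, at 2.66 and 2.15, a difference of -0.51 that resembles that of Kcnj14 in size.

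**Figure D5:**
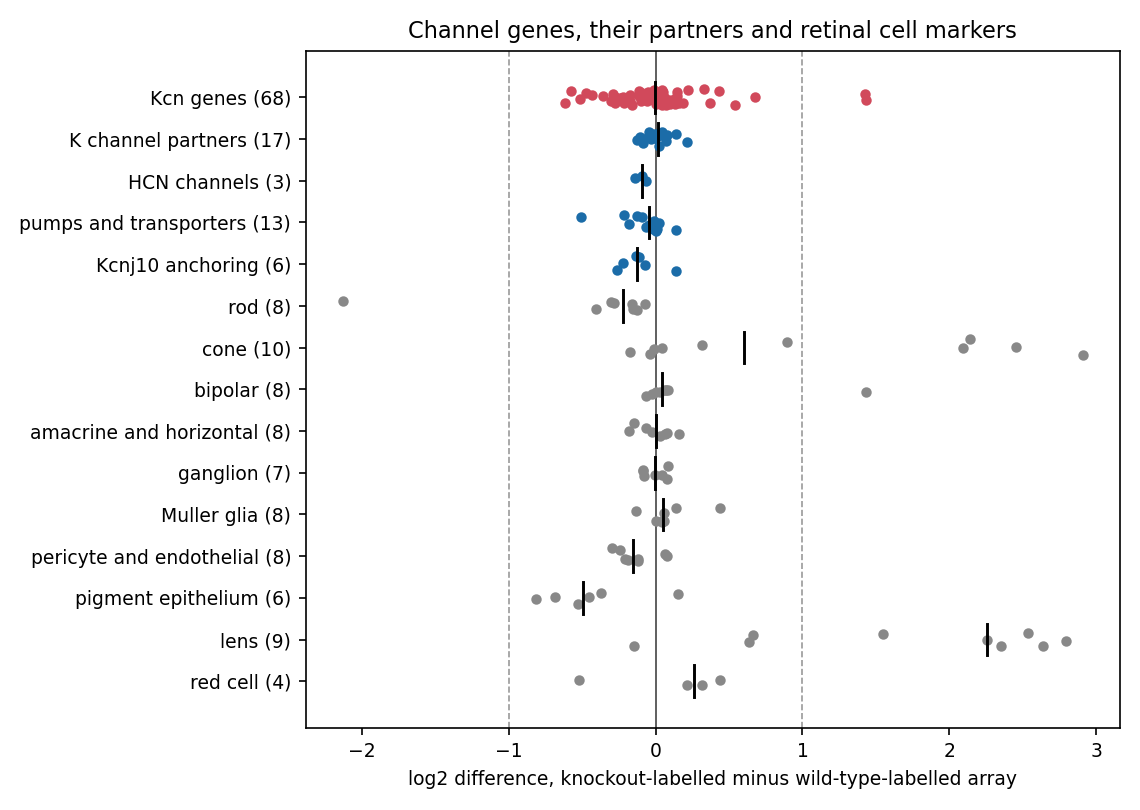
Points are genes above background, with their log2 difference (knockout-labelled minus wild-type-labelled array, bounds included) on the x axis, for the 68 channel genes (red), partner and transport genes (blue) and marker genes of retinal and neighbouring cells (grey); black bars are medians and numbers in brackets are genes. The channel genes centre on 0 with Kcne2 and Kcnh7 at the right, while cone and lens markers reach beyond 2-fold higher and pigment epithelium markers lie mostly below 0.

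The remaining marker lists give the setting of these values. Bipolar markers had a median of 0.046, with the G protein subunit Gng13 at 1.43 and the other 7 within 0.25 of 0. Amacrine and horizontal markers had a median of 0.0039 and ganglion cell markers -0.0044. Lens markers, of tissue next to the retina, were at least 2-fold higher in 6 of 9, with a median of 2.25, from -0.15 (Bfsp2) to 2.80 (Crybb2), and a summed signal of 4.28 and 18.5, and red cell markers had a median of 0.26. All retinal lists were above background in full. The share of lens or blood RNA in any channel gene's value was not tested.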

How the data were processed

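RNA of 2 retina samples, 1 per genotype label, was read on 1-colour arrays. The authors deposited scanner intensity values. Per the file headers, the software was Agilent Feature Extraction 11.5.1.1, its protocol GE1_1105_Oct12, the array design was built on mm9, and spatial and multiplicative detrending were applied. The authors' deposited value table, also intensity, equals the processed signal times a constant per array (median log2 ratio 1.31 and 1.37; column medians 108 and 106, so it is linear and uncentred), and served as an alternative.

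Control spots and outlier-flagged spots (119 and 163) were left out. Log2 processed signals, less the 75th percentile of each array, were averaged over the spots of a probe. Probes were named by accession without version through a RefSeq table of GRCm38.p6: of 55677 probes, 28330 (50.9%) had 1 symbol, none several and 27347 none. The brightest probe stood for a gene, which counted when more than 50% of that probe's spots were well above background on at least 1 array. The threshold was 2-fold. Spot precision came from repeated probes above background on both arrays. Gene order came from the same table.

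Alternatives were quantile normalization, median centring, loess (span 0.3), normexp on median signals (offset 50, quantile), the authors' values, the mean over probes, filters on dim genes and other folds. Named genes were members at least 2-fold apart, the 8 highest and 8 lowest, Kcne2, Kcnv2, Kcnj8 and Kcnj10, 9 genes of known place in retina, class extremes and genes with discordant probes; other members are given to account for all. Members and lists were chosen with earlier results of these data known. The call step was tested on simulated data. Some listed genes are not reported here. R 4.3.3, limma 3.58.1 and Python 3.11.15 were used. The number of arrays limits the precision.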

Additional observations from a re-analysis of the deposited data

Results flagged for a closer look

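A pair of probes outside the gene values above differed at least 2-fold between the arrays, a signal in data that the gene comparisons do not use. For Kcnj11, probe A_55_P1961477 differed by at least -2.95 on the log2 scale by a bound (-0.84 after normexp), whereas the probe used for the gene was at -0.24. For Kcnq1ot1, probe A_55_P2196922 was higher by 1.87 (1.01 after normexp), whereas the probe used was at 0.19. No explanation was tested for either.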

How the results depend on the processing

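Against 2 channel genes at least 2-fold higher and 0 lower, the counts were 1 and 0 after normexp on median signals, with only genes above background on both arrays and with mean signal at or above the median; Kcne2 was the gene left each time. The mean over probes gave 3 and 1, adding Kcnq1ot1 (1.03) and Kcnj11 (-1.82), and no filter on dim probes 3 and 2. At 1.5-fold there were 3 and 1, and at 4-fold 0 and 0. Quantile normalization, median centring, loess and the authors' values left 2 and 0. The median of the noncoding pair moved from -0.012 to 0.41 with the mean over probes. The median of the channel genes ran from -0.031 to 0.023 over the alternatives and changed sign by scaling, as did that of all genes (-0.049 to 0.0091). Of 168 recomputed values of 28 named channel genes, 10 moved by over the spot SD, 6 with normexp. Sign changes numbered 7, in the 4 genes Kcnb2, Kcnj12, Kcnn2 and Kcnq1 (-0.22 with the mean over probes). Where not shown above, the cause was not tested. Dim signal limits the genes below -4. The columns used here held median but not mean foreground signals, so normexp could not take the latter. Leaving out an array leaves no comparison. No paired analysis was possible because a single array stands for either genotype.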
